A study of Mus musculus with 21 samples.

Results

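The genotype by day interaction in cardiotoxin-injured muscle was measured in 11 of the 21 arrays of the series. It is the difference between DTR+ and DTR- muscle at day 8 minus the same difference at day 4, on a log2 scale, for every gene. The arrays were those whose sample titles carry CTx: 3 of Foxp3-DTR- muscle and 2 of Foxp3-DTR+ muscle at day 4, and 3 of each genotype at day 8. All came from whole tibialis anterior, a muscle of the shin, of male C57BL/6 mice aged 8 weeks. Foxp3-DTR+ mice carry the diphtheria toxin receptor under the control of Foxp3, so diphtheria toxin is given to deplete their regulatory T cells (Tregs), and Foxp3-DTR- mice lack the receptor. Every mouse of both genotypes received cardiotoxin at day 0 and diphtheria toxin on alternate days until the muscle was taken. In the labels the 4 groups differ by genotype and day, and the mice of day 8 had a longer course of toxin. The day of repair and the length of toxin treatment cannot be told apart. Whether the arrays of a group stand for different animals is not in the labels, and p-values then measure only the spread between these arrays, which may be technical.

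Cardiotoxin destroys muscle fibres but leaves their stem cells alive, and the damage draws in monocytes that become macrophages, first inflammatory and later of a repair type, while satellite cells divide, differentiate and fuse into new fibres. Tregs collect in injured muscle and are known to limit inflammation there and to favour the passage to repair. Interferon gamma, made by T and NK cells, induces GTPases that attack intracellular microbes, the immunoproteasome, and the MHC molecules that present peptides. The cytokines of type 2 immunity induce a different macrophage programme, with arginase and lectin-like secreted proteins.

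The values are RMA intensities, given here as log2, and the median intensity of the 11 arrays lay between 143.51 and 159.53. Foxp3 lay close to background in all groups, with 6.76, 6.38 and 6.79 in DTR- muscle and 6.71, 6.32 and 6.35 in DTR+ muscle at day 8, so the removal of Tregs could not be followed through it. Some arrays weighed heavily on the counts that follow. DTR+ replicates 2 and 3 at day 4 read apart, with a mean over the type I interferon induced genes of 9.11 and 8.34, and leaving out replicate 2 raised the number of genes called in the interaction from 78 to 224 while leaving out replicate 3 lowered it to 12. DTR- replicate 1 at day 4 had a mature fast fibre mean of 10.92 where its companions had 11.70 and 11.75, and 28 genes were called without it. In the fit as planned, 13515 genes were tested with limma, with p-values adjusted by Benjamini-Hochberg within each comparison and a gene called at an adjusted p under 0.05. A gene was tested if at least 2 arrays of the series lay above the 40th percentile of the array, log2 6.56 to 6.77 in these data. Where this filter level is used as the base of a fold, the fold is a lower bound and the level is not a limit of detection.

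The interaction asked which changes of repair depended on the genotype. In it, 78 genes were called (0.577% of those tested), of which 74 were higher (0.548%) and 4 were lower (0.0296%). Higher means that the gap between DTR+ and DTR- muscle moved upwards from day 4 to day 8, either because a gene rose in DTR+ muscle or because it fell less there than in DTR- muscle. The 74 genes had a median interaction of 1.44 and ranged from 0.84 to 4.86, against a median of -0.02 over all genes tested and a median standard error of 0.26. Their median genotype effect was -0.10 at day 4 and 1.35 at day 8. At day 8 the highest DTR- array lay below the lowest DTR+ array for all 74, and 1316 genes (9.74%) showed that separation.

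The 2 genotype effects share no array with each other, and each shares its arrays with the interaction. At day 4 a single gene was called (0.0074%). It was Gm4841, named here after its values were seen, which was higher in DTR+ muscle by 2.55 ± 0.30 (SE, limma adjusted p = 0.00101) at day 4 and by 2.27 ± 0.27 (limma adjusted p = 3.64e-05) at day 8, and its interaction of -0.28 did not pass (limma adjusted p = 0.93). At day 8, 491 genes were called (3.63%), 404 higher in DTR+ muscle (2.99%) and 87 lower (0.644%). Every one of the 78 interaction genes was uncalled at day 4, and 72 of the 74 higher genes and all 4 lower genes were called in the same direction at day 8. The 2 exceptions were Phf11a, with a day 8 effect of 0.66 after -1.16 at day 4, and H2-Eb2, with 0.48 after -0.65.

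The course from day 4 to day 8 was compared between the genotypes as well, and the courses share no array with each other. In DTR- muscle 3959 genes were called (29.3%), 1550 higher (11.5%) and 2409 lower (17.8%) at day 8. In DTR+ muscle 1470 genes were called (10.9%), 375 higher (2.77%) and 1095 lower (8.1%), with 2 arrays in place of 3 at day 4. The 1180 genes called in the same direction in both were 29.8% of the DTR- calls and 80.3% of the DTR+ calls. Genes that rose in DTR- muscle had a median change of 0.74 there and 0.32 in DTR+ muscle, and genes that fell had a median of -0.80 there and -0.52 in DTR+ muscle. They were chosen on the DTR- values, so the smaller medians in DTR+ muscle are a description. Only 9 genes were called in opposite directions, and all of them were also called in the interaction.

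**Figure D1:**
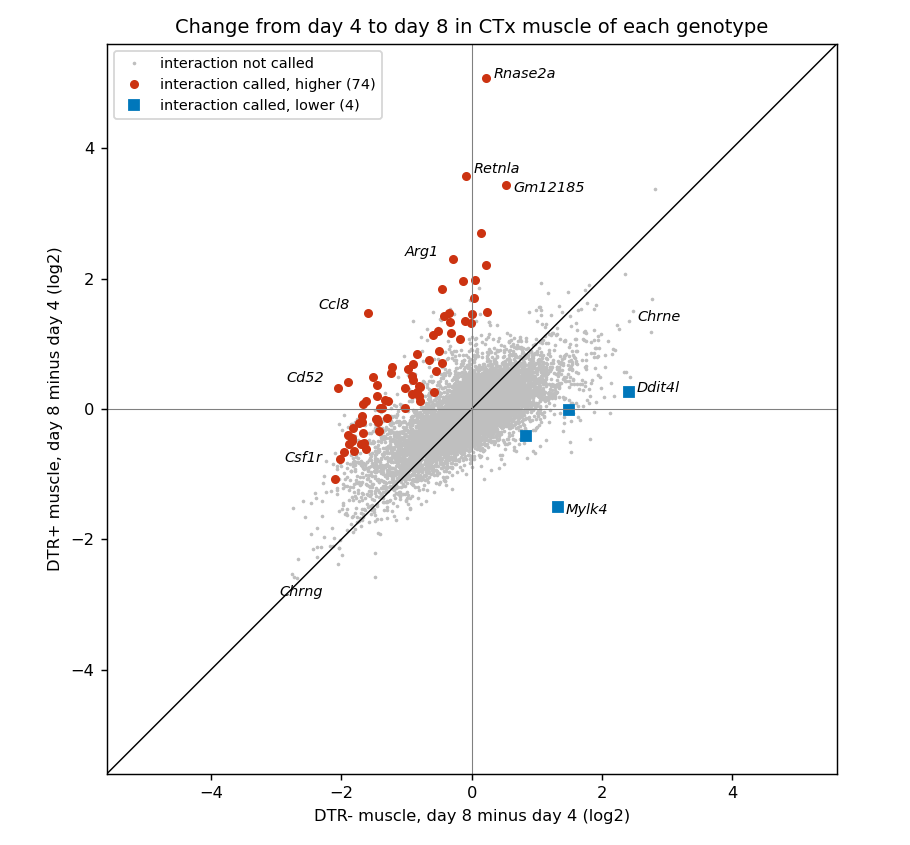
Change from day 4 to day 8 (log2) of each tested gene in DTR- CTx muscle on the horizontal axis and in DTR+ CTx muscle on the vertical axis, with genes called in the interaction as red circles (74 higher) and blue squares (4 lower) and equal change on the diagonal. The called genes lie above the diagonal except for 4, and most red circles have a negative or near-zero change in DTR- muscle.

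Sorted by the calls of the 2 courses, the 74 higher genes fell into 4 patterns. The largest, with 41 genes, fell in DTR- muscle (median -1.44) and were not called in DTR+ muscle (median 0.12), where 16 of them had a negative change. Another 20 rose in DTR+ muscle (median 1.59) and were not called in DTR- muscle (median -0.10). In 8 genes the change was called in both and ran in opposite directions, and in 5 it was a fall in both that was smaller in DTR+ muscle (median -0.67 against -1.96). Of the 4 lower genes, 3 rose in DTR- muscle and were not called in DTR+ muscle, and 1 rose in DTR- muscle and fell in DTR+ muscle. With 2 days measured, a change that comes later and a change that does not come cannot be told apart. In whole muscle, fewer cells of a type and less RNA per cell cannot be told apart either.

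The genes added in DTR+ muscle at day 8 included an eosinophil-associated ribonuclease and genes known from macrophages activated by type 2 cytokines. Which cells expressed them was not tested. Rnase2a (probe set 10419568), a ribonuclease of the eosinophil-associated family, lay above the filter level in DTR+ muscle at day 8 alone. It read 4.005, 4.34 and 4.19 in DTR- muscle and 4.27 and 5.47 in DTR+ muscle at day 4, and 4.18, 4.72 and 4.28 in DTR- muscle and 10.83, 9.9998 and 8.997 in DTR+ muscle at day 8. The DTR+ arrays at day 8 stood far above the other 8, which all lay below the filter level. The fitted interaction was 4.86 ± 0.53 (SE, limma adjusted p = 0.000159), a size that rests on values below that level, and expression at day 8 was at least 9.75-fold higher in DTR+ than in DTR- muscle, counted against the filter level.

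Retnla (probe set 10436095), which encodes the secreted protein RELM alpha of alternatively activated macrophages, read 7.42, 6.77 and 7.91 in DTR- and 7.39 and 8.90 in DTR+ muscle at day 4, and 7.25, 7.19 and 7.41 and 12.55, 11.96 and 10.66 at day 8. One DTR+ array was already the highest of the 5 at day 4, and the groups overlapped there but not at day 8. The interaction was 3.66 ± 0.58 (limma adjusted p = 0.0066), and the gene rose 11.9-fold in DTR+ muscle between the days. Arg1 (probe set 10368343), arginase, which competes for the arginine used to make nitric oxide, read 6.33, 6.05 and 5.72 and 5.79 and 6.08 at day 4 and 5.62, 5.87 and 5.77 and 9.06, 8.08 and 7.57 at day 8, in DTR- and DTR+ muscle in that order. Only the DTR+ arrays at day 8 were above the filter level. Its interaction was 2.58 ± 0.38 (limma adjusted p = 0.00393), a size that rests on values below that level, and DTR+ muscle at day 8 was at least 2.99-fold higher.

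Chil3, a chitinase-like protein secreted by macrophages, read 4.70, 5.09 and 4.68 in DTR- and 8.14, 7.19 and 6.60 in DTR+ muscle at day 8, after 5.33, 5.69 and 4.83 and 5.63 and 5.32 at day 4 (interaction 2.29 ± 0.44, limma adjusted p = 0.0248). Ccl24, a chemokine that attracts eosinophils, read 6.12, 6.10 and 5.80 and 7.60, 7.29 and 7.39 at day 8 after 6.19, 6.40 and 5.98 and 6.32 and 6.38 at day 4 (interaction 1.26 ± 0.20, limma adjusted p = 0.0066). For both, the 8 arrays of the other groups lay below the filter level, and the sizes of the interactions rest on those values. The related chemokine Ccl11 did not pass the interaction (0.83, 95% interval 0.14 to 1.53, limma adjusted p = 0.337), although it was called at day 8 (genotype effect 1.21, limma adjusted p = 0.00253). Of the eosinophil marker genes, Epx and Prg2 were below the filter level and not tested, and Siglecf had an interaction of 0.16.

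Pdcd1lg2 (probe set 10462398) encodes PD-L2, a ligand of the inhibitory receptor PD-1. It read 5.54, 5.35 and 5.55 in DTR- and 5.66 and 5.62 in DTR+ muscle at day 4, and 5.80, 5.51 and 5.76 and 7.996, 7.58 and 7.99 at day 8. All 8 arrays outside the DTR+ day 8 group were below the filter level, between 5.35 and 5.80. The interaction was 1.996 ± 0.21, with the smallest adjusted p of any gene tested (limma adjusted p = 0.00014). Both its size and its p-value rest partly on values below the filter level. DTR+ muscle at day 8 was at least 2.29-fold higher. Cd274, which encodes the other ligand PD-L1, had an interaction of 1.86 (95% interval 0.88 to 2.84) that did not pass (limma adjusted p = 0.0772), with 8.37, 7.88 and 8.09 in DTR- and 10.03, 10.20 and 11.25 in DTR+ muscle at day 8. Col6a5 (probe set 10596409), a chain of collagen VI, read 6.92, 6.90 and 6.97 and 6.72 and 7.32 at day 4 and 7.02, 6.79 and 7.13 and 9.25, 8.98 and 8.78 at day 8. It rose 3.96-fold in DTR+ muscle and had an interaction of 1.93 ± 0.26 (limma adjusted p = 0.00199). Of the 17 genes of the fibrillar and basement collagen list 0 were called, where 0.577% of all genes were. In that list 0 were higher and 2 lower at an unadjusted p under 0.05 in limma.

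**Figure D2:**
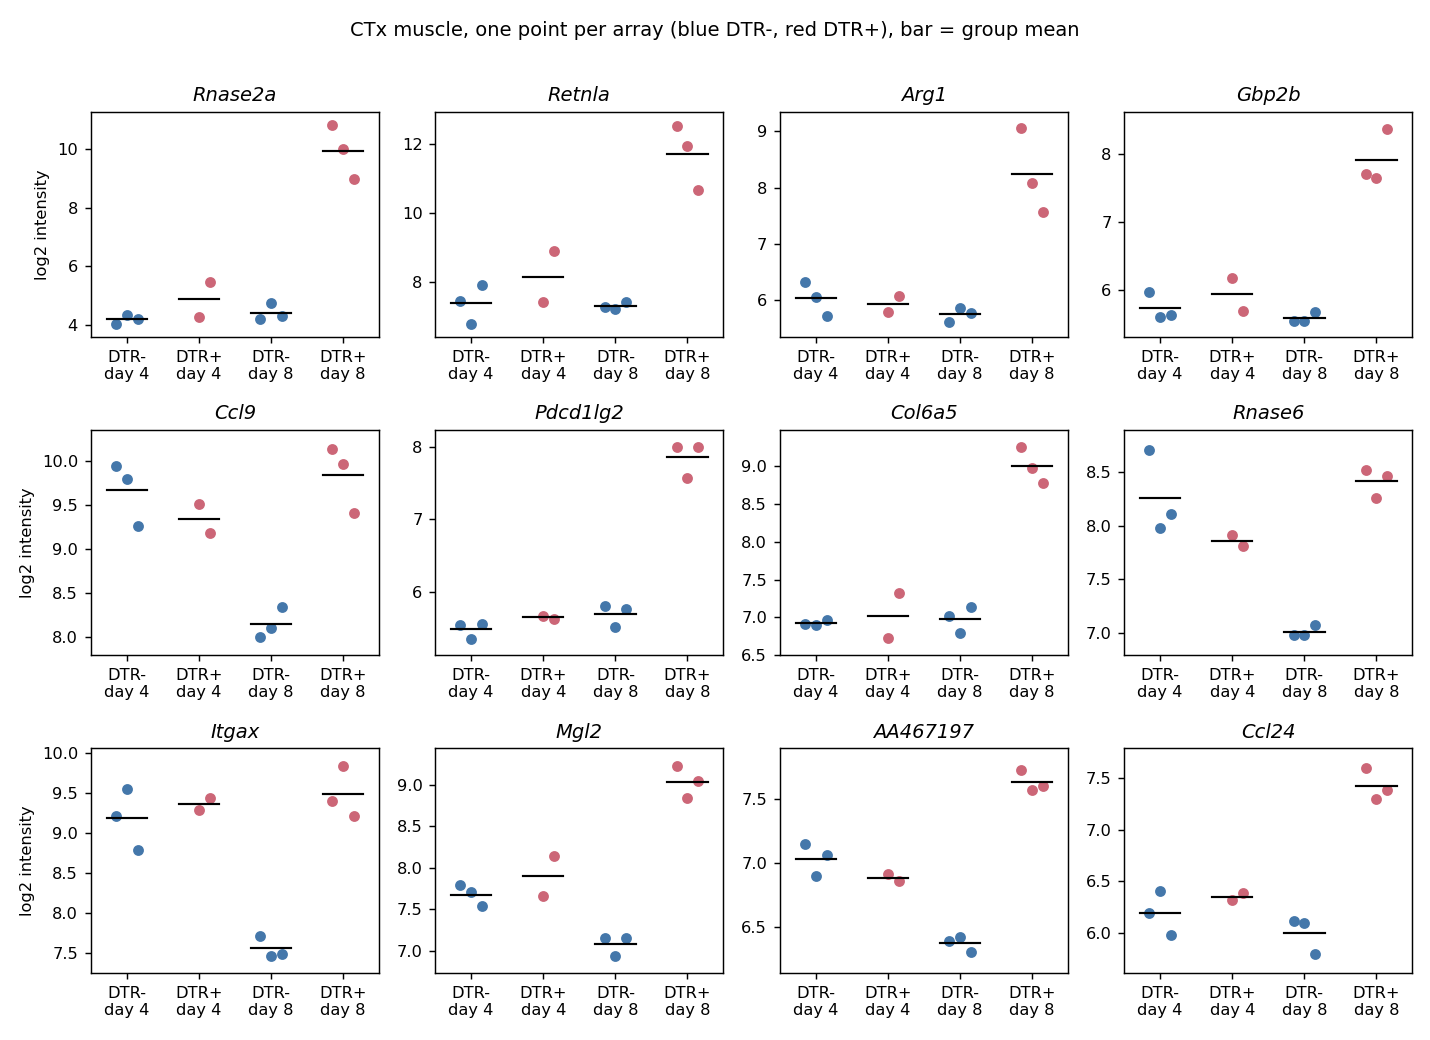
Log2 intensity of the 12 genes called in the interaction in every fit that left out 1 array, with 1 point per array (blue DTR-, red DTR+), the 4 groups on the horizontal axis, a bar at each group mean and a vertical axis that does not start at 0. Rnase2a, Retnla, Arg1, Gbp2b, Pdcd1lg2, Col6a5, Mgl2, AA467197 and Ccl24 are highest in DTR+ muscle at day 8, and Ccl9, Rnase6 and Itgax drop at day 8 in DTR- muscle but not in DTR+ muscle.

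Genes induced by interferon gamma were also among the additions. Gbp2b, a guanylate-binding protein, Irgm1 and Iigp1, immunity-related GTPases, and Gm12185, a predicted GTPase gene, rose in DTR+ muscle, and Psmb8, an immunoproteasome subunit, fell in DTR- muscle and rose in DTR+ muscle. Promoter sequence was taken from the RefSeq promoter table (GRCm38.p6), in which 53 of the 74 higher genes had an entry. The 250 bases before each start site were searched on both strands for 2 copies of GAAA set 2 bases apart, a form of the interferon-stimulated response element, and TTCNNNGAA, a form of the gamma activated site. The paired GAAA was found for 10 of the 53 genes (18.9%) and for 3.12% of the 10729 tested genes with an entry, and TTCNNNGAA for 7 of the 53 (13.2%) and 7.05% of the tested genes. Of all 32851 windows, 2.98% held the first and 7.02% the second. Most genes with the paired GAAA lay outside the interferon gamma induced list, among them Apol7c, Coro2a, Cybb, Cytip, Phf11a, Rnase6 and Slamf8. Of the 8 called members of that list 4 had an entry, and 1 held the first motif and 1 the second. The matches are a description of letters and not evidence of binding.

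Windows of 4 called genes are shown because they hold a match, which stands in capitals, 5′ to 3′ on the gene's own strand. They lie at chr3:142594597-142594846 (plus strand, Gbp2b), chr11:48871421-48871670 (minus strand, Irgm1), chr11:48927183-48927432 (minus strand, Gm12185) and chr17:34197945-34198194 (plus strand, Psmb8). Irgm1 holds 2 overlapping matches to the paired GAAA, and Gm12185 holds TTCNNNGAA and, just downstream, the paired GAAA. The match in Gbp2b is the first motif on the opposite strand, and that in Psmb8 is the second motif.
Gbp2b: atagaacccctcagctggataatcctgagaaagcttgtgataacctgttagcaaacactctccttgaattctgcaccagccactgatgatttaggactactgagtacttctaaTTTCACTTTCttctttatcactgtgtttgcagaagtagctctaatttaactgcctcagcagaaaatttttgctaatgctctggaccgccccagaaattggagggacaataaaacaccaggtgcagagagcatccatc
Irgm1: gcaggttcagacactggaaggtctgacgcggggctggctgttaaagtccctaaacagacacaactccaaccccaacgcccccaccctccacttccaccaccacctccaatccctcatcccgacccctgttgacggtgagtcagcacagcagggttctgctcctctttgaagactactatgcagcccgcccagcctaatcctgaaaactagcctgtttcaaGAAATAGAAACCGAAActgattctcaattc
Gm12185: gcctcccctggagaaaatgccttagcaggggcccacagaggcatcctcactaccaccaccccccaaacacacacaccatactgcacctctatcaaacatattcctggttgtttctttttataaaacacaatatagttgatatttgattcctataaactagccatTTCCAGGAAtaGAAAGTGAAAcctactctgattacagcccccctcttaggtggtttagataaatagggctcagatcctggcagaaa
Psmb8: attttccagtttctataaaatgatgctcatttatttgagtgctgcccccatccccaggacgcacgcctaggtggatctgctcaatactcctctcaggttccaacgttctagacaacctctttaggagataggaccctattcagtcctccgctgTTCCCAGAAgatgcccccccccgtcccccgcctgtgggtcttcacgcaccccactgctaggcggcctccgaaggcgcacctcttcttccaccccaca

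Gbp2b (probe set 10496555) read 5.97, 5.602 and 5.64 in DTR- and 6.18 and 5.70 in DTR+ muscle at day 4, and 5.55, 5.55 and 5.68 and 7.70, 7.64 and 8.36 at day 8. It was above the filter level in DTR+ muscle at day 8 only, at least 2.37-fold over DTR- muscle (interaction 2.10 ± 0.31, limma adjusted p = 0.00393). The size of that interaction rests on values below the level. Gm12185 read 5.78, 5.75 and 5.33 and 6.92 and 6.70 at day 4 and 7.005, 5.79 and 5.62 and 10.56, 10.19 and 9.98 at day 8. Both DTR+ arrays of Gm12185 at day 4 already lay above the DTR- arrays of that day, and the gap widened by 2.91 ± 0.55 (limma adjusted p = 0.0216).

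Iigp1 read 8.71, 8.01 and 8.34 and 9.66 and 8.35 at day 4 and 8.96, 8.35 and 8.17 and 12.02, 11.91 and 11.19 at day 8. Its groups overlapped at day 4 and not at day 8, and the interaction of 2.56 ± 0.57 passed narrowly (limma adjusted p = 0.0482). Irgm1 read 9.27, 9.18 and 9.15 and 9.75 and 9.52 at day 4 and 9.09, 8.50 and 8.95 and 11.01, 11.05 and 11.28 at day 8. It rose 2.78-fold in DTR+ muscle, while the change of -0.35 in DTR- muscle did not pass (limma adjusted p = 0.317). Gbp8 and Gbp11 had interactions of 1.86 and 1.45, Ccl5, a chemokine for T cells, had 1.67, and Psmb10, another immunoproteasome subunit, had 1.71. Guanylate-binding proteins, immunity-related GTPases and eosinophil-associated ribonucleases belong to families of similar sequence, and how far each probe set takes up related transcripts is uncertain.

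Of the 27 tested genes of the interferon gamma induced list, 8 were called higher in the interaction and 22 had an unadjusted p under 0.05 in that direction, where 5.4% of all genes did. The median interaction was 1.35, made up of a genotype effect of 0.26 at day 4 and 1.61 at day 8. At day 8, 23 of the 27 were called higher in DTR+ muscle, where 2.99% of all genes were. The list mean read 8.26, 8.19 and 8.33 in DTR- muscle and 9.64, 9.71 and 10.19 in DTR+ muscle at day 8, after 8.66, 8.58 and 8.54 and 9.25 and 8.69 at day 4. DTR+ arrays were thus above DTR- arrays at both days, by a wider gap at day 8. Cxcl9, a chemokine that draws activated T cells, had 9.05, 9.37 and 9.59 in DTR- and 11.28, 11.43 and 12.02 in DTR+ muscle at day 8, and its interaction of 1.75 (95% interval 0.83 to 2.66) did not pass (limma adjusted p = 0.0771). Ifng itself read close to background, with 6.24, 6.25 and 6.56 and 6.97, 6.96 and 7.08 at day 8 (interaction 0.47, limma adjusted p = 0.517).

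Genes induced by type I interferon behaved differently at day 4. None of the 39 tested was called in the interaction (16 higher and 0 lower at an unadjusted p under 0.05 in limma), although all 39 values were positive. At that unadjusted p, 5.4% of all genes were higher. The list's median genotype effect was -0.51 at day 4, when 0 of 39 were called. At day 8 it was 0.05, and 4 of 39 were called higher, where 2.99% of all genes were. Mx1, an antiviral GTPase, read 8.19, 8.41 and 7.92 in DTR- and 7.73 and 6.61 in DTR+ muscle at day 4, and 6.07, 6.18 and 6.69 and 6.09, 6.05 and 6.53 at day 8. Irf7, a transcription factor of the interferon response, read 10.82, 10.74 and 10.38 and 9.77 and 9.41 at day 4, and 8.92, 8.40 and 9.23 and 8.56, 8.60 and 9.55 at day 8. For both genes the DTR+ arrays were below every DTR- array at day 4 and overlapped with them at day 8, the reverse of the order in the interferon gamma induced list. The list's median interaction of 0.61 was 1.11 without DTR+ replicate 2 at day 4 and 0.33 without replicate 3.

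In 8 genes a fall in DTR- muscle stood against a rise in DTR+ muscle. Ccl8, a chemokine for monocytes and for cells of type 2 inflammation, had the largest interaction of them. It read 9.62, 8.40 and 8.13 in DTR- and 9.09 and 7.90 in DTR+ muscle at day 4, and 7.26, 7.12 and 6.97 and 10.26, 9.76 and 9.91 at day 8. The groups overlapped at day 4, and at day 8 every DTR+ array was above, and every DTR- array below, all arrays of its genotype at day 4. Expression changed by -1.60 in DTR- muscle (limma adjusted p = 0.00118) and by 1.48 in DTR+ muscle (limma adjusted p = 0.0143), a difference of 3.07 ± 0.50 (limma adjusted p = 0.00681).

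Mgl2 (probe set 10377774), a lectin of alternatively activated macrophages and dermal dendritic cells, read 7.79, 7.70 and 7.53 and 7.66 and 8.15 at day 4 and 7.16, 6.94 and 7.16 and 9.22, 8.84 and 9.04 at day 8 (interaction 1.72 ± 0.29, limma adjusted p = 0.00803). Tap1, which carries peptides to MHC class I, read 9.71, 9.68 and 9.35 and 9.94 and 9.61 at day 4 and 8.81, 8.66 and 8.75 and 10.33, 10.42 and 11.10 at day 8 (interaction 1.69 ± 0.30, limma adjusted p = 0.0136). Psmb8, whose promoter window is shown above, read 8.78, 8.40 and 8.37 and 8.62 and 8.46 at day 4 and 7.51, 7.53 and 7.82 and 9.13, 8.96 and 9.59 at day 8 (interaction 1.58 ± 0.26, limma adjusted p = 0.00803). In all 3 genes the day 4 groups overlapped and the day 8 groups were more than 1 log2 unit apart. AA467197 changed by -0.66 in DTR- and 0.74 in DTR+ muscle, F10, coagulation factor X, by -0.50 and 0.89, and Ms4a8a, a membrane protein of macrophages, by -0.45 and 0.71. H2-Eb2, an MHC class II chain, changed by -0.54 and 0.59, and lay below the filter level in DTR+ muscle at day 4 and DTR- muscle at day 8. AA467197 also lay below that level in DTR- muscle at day 8.

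The 41 genes that fell in DTR- muscle and were not called in DTR+ muscle were led by leukocyte and macrophage genes. Cd52, a surface glycoprotein of leukocytes, read 11.70, 10.79 and 10.44 in DTR- and 10.91 and 10.20 in DTR+ muscle at day 4, and 8.91, 8.80 and 9.07 and 10.75, 10.88 and 11.003 at day 8. It fell by 2.05 in DTR- muscle (limma adjusted p = 1.09e-05) and had a change of 0.32 in DTR+ muscle (limma adjusted p = 0.525), an interaction of 2.37 ± 0.38 (limma adjusted p = 0.00681). Itgax (probe set 10557895), the integrin CD11c of dendritic cells and some macrophages, read 9.22, 9.55 and 8.78 and 9.29 and 9.44 at day 4 and 7.72, 7.47 and 7.49 and 9.40, 9.84 and 9.22 at day 8. Only the DTR- arrays at day 8 were low, and the other 8 arrays lay between 8.78 and 9.84 (interaction 1.75 ± 0.28, limma adjusted p = 0.00681).

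The chemokines Ccl9 and Ccl6, made by macrophages, fell in DTR- muscle in the same way. Ccl9 (probe set 10389214) read 9.94, 9.79 and 9.26 and 9.51 and 9.17 at day 4 and 7.99, 8.09 and 8.33 and 10.14, 9.96 and 9.41 at day 8 (interaction 2.02 ± 0.29, limma adjusted p = 0.00393). Ccl6 read 8.28, 8.97 and 8.59 in DTR- and 11.18, 10.83 and 10.12 in DTR+ muscle at day 8 (interaction 1.87 ± 0.39, limma adjusted p = 0.0316). Rnase6 (probe set 10414548), an antimicrobial ribonuclease of myeloid cells, read 8.70, 7.98 and 8.11 and 7.91 and 7.81 at day 4 and 6.98, 6.98 and 7.08 and 8.52, 8.25 and 8.46 at day 8. Its DTR+ arrays were the lower at day 4 and the higher at day 8 (interaction 1.80 ± 0.26, limma adjusted p = 0.00393), and its change of 0.55 within DTR+ muscle did not pass (limma adjusted p = 0.0759).

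Of the complement genes, 3 of the 13 tested were called in the interaction, where 0.577% of all genes were, and all 3 belonged to this pattern. Cfp, which encodes properdin, a stabiliser of the alternative complement pathway, fell by 1.67 in DTR- muscle and had a change of 0.08 in DTR+ muscle. Fcgr2b, the inhibitory Fc receptor, also fell by 1.90 and had -0.40 in DTR+ muscle. C1qa and C1qb, chains of the complement component that binds antibody, fell by 1.69 and 1.65 and had -0.20 and -0.52. Mrc1, the mannose receptor, fell by 1.47 and had -0.15. Plac8, which had a single high array of 9.61 in DTR- muscle at day 4, fell by 1.89 and had 0.41 in DTR+ muscle. These are calls of the course in DTR- muscle and of the interaction, in which the limma adjusted p of the 6 genes ran from 0.00976 to 0.0482.

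The MHC class II genes H2-Ab1 and Ciita showed this pattern too. H2-Ab1, a class II beta chain, read 12.23, 11.61 and 11.67 in DTR- and 12.10 and 11.89 in DTR+ muscle at day 4, and 10.87, 11.07 and 11.15 and 12.51, 12.47 and 12.06 at day 8. Ciita, the transcription factor that switches on class II genes, read 8.34, 7.99 and 8.05 and 8.57 and 8.20 at day 4 and 7.37, 7.23 and 7.38 and 8.46, 8.41 and 8.86 at day 8. In both genes the DTR- arrays at day 8 were the lowest of the 11. The interaction was 1.16 ± 0.26 for H2-Ab1 and 0.996 ± 0.22 for Ciita (limma adjusted p = 0.0482 and 0.0482). With H2-Eb2 they were the 3 of 9 tested MHC class II genes called, all higher, and 7 of 9 were higher at an unadjusted p under 0.05. The shares over all genes were 0.548% called higher and 5.4% higher at that unadjusted p. In DTR- muscle 7 of the 9 were called lower at day 8 than at day 4 (median -0.80), where 17.8% of all genes were. In DTR+ muscle 0 were called lower and 1 higher (median 0.23), where 8.1% and 2.77% of all genes were. Calls in DTR+ muscle rest on fewer arrays at day 4, so the counts of the genotypes are not directly comparable.

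All 35 tested pan macrophage genes fell in DTR- muscle (median -1.87), and 21 fell in DTR+ muscle (median -0.87). Called in the interaction were 5 of 35, all higher, and 25 of 35 had an unadjusted p under 0.05. Over all genes, 0.548% were called higher and 5.4% were higher at that unadjusted p. In the courses, 17.8% of all genes were called lower in DTR- and 8.1% in DTR+ muscle. Csf1r, the receptor for the growth factor of macrophages, read 11.29, 11.25 and 10.93 in DTR- and 11 and 11.12 in DTR+ muscle at day 4, and 9.10, 9.13 and 9.15 and 10.36, 10.25 and 10.27 at day 8. Its arrays separated into 3 levels without overlap, namely day 4 of either genotype, DTR+ at day 8 and DTR- at day 8. It fell by 2.03 in DTR- muscle and by 0.77 in DTR+ muscle (interaction 1.26 ± 0.22, limma adjusted p = 0.0112).

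Cybb, a subunit of the phagocyte oxidase, fell by 1.96 and by 0.67, and Ctsh, a lysosomal protease, fell by 2.10 and by 1.07. Abcg1, a cholesterol exporter, fell by 1.63 and by 0.61, and Nckap1l, a regulator of actin in leukocytes, fell by 1.80 and by 0.64. These 4 genes and Csf1r were the 5 whose fall was smaller in DTR+ muscle. Adgre1, which encodes F4/80, also fell in both, by 1.95 and by 1.08, and its interaction of 0.86 (95% interval 0.33 to 1.40) did not pass (limma adjusted p = 0.145). Ccr2, through which monocytes are drawn into tissue, read 6.86, 7.25 and 7.27 in DTR- and 8.21, 8.50 and 8.17 in DTR+ muscle at day 8 after 9.66, 8.52 and 9.31 and 9.17 and 7.87 at day 4, and its interaction of 1.81 did not pass (limma adjusted p = 0.0795). Over the 5 macrophage markers, the log2 of the summed intensity ran from 11.75 to 11.91 in DTR- muscle and from 12.45 to 12.62 in DTR+ muscle at day 8, and from 13.44 to 13.94 over both genotypes at day 4. What part the number of macrophages has in the calls of their genes was not tested.

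**Figure D3:**
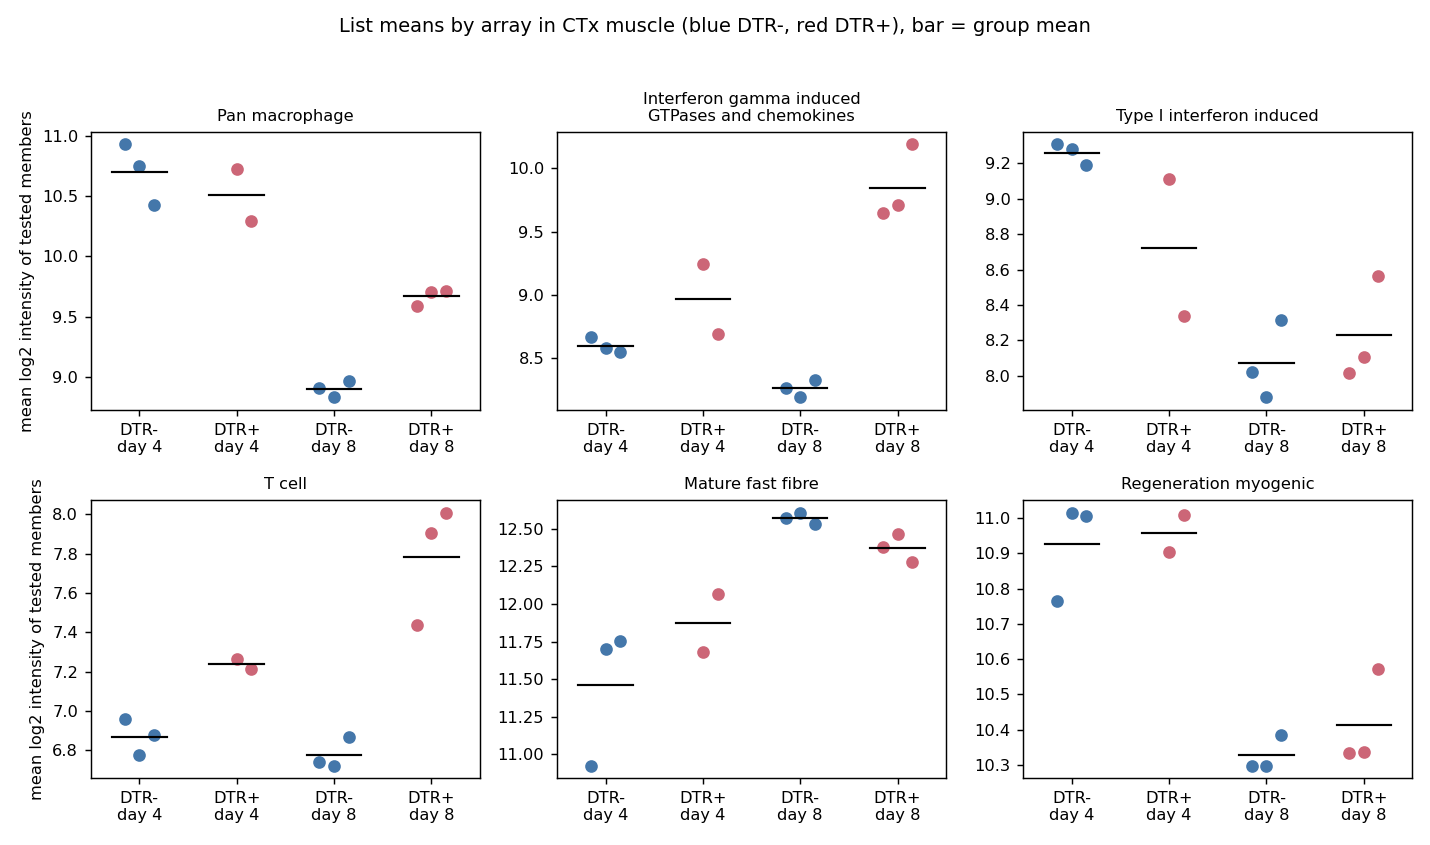
Mean log2 intensity over the tested members of 6 gene lists, with 1 point per array (blue DTR-, red DTR+), a bar at each group mean and a vertical axis that does not start at 0. Pan macrophage means at day 8 are 8.83 to 8.96 in DTR- and 9.59 to 9.71 in DTR+ muscle, and the mature fast fibre mean of DTR- replicate 1 at day 4 is 10.92.

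Among the other myeloid lists, repair and alternatively activated macrophage genes gave 7 of 32 called higher in the interaction, 0 lower, and a median of 0.56. The 7 were Arg1, Retnla, Chil3, Ccl24, Ccl8, Mgl2 and Mrc1. The list's median course was -0.88 in DTR- muscle and -0.24 in DTR+ muscle, where 6 genes rose and 9 fell. In DTR+ muscle 2.77% of all genes were called higher and 8.1% lower. Inflammatory monocyte and macrophage genes gave 4 of 22 (median 0.96), complement 3 of 13 (median 0.96) and dendritic cell genes 2 of 15 (median 0.73), all higher. Among all genes tested, 0.548% were called higher in the interaction. Some genes stand in more than 1 list. The lists were written with earlier results of these data known, and the counts describe them.

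Most T cell genes were higher in DTR+ muscle at day 8, and none passed as an interaction. Of 16 tested T cell genes, 12 were called higher at day 8 and 0 in the interaction (10 higher and 0 lower at an unadjusted p under 0.05 in limma), with a median interaction of 0.70. Over all genes, 2.99% were called higher at day 8 and 0.548% higher in the interaction, with 5.4% higher at that unadjusted p. Cd8a, a co-receptor of cytotoxic T cells, read 6.73, 6.21 and 6.30 in DTR- and 7.26 and 6.79 in DTR+ muscle at day 4, and 6.49, 6.54 and 6.64 and 7.70, 8.28 and 8.52 at day 8. Cd3e, a chain of the T cell receptor complex, read 7.24, 6.97 and 6.88 and 7.56 and 7.97 at day 4, and 6.87, 7.15 and 7.24 and 7.95, 8.92 and 8.76 at day 8. In both genes the DTR+ arrays lay above the DTR- arrays at both days. At day 4 the DTR+ mean was the higher for 13 of the 16 T cell genes and the lower for 3, Cd4, Cd28 and Ptprcap, and none was called. The median genotype effect at day 4 was 0.32 for the list and 0.02 over all genes tested. The interactions of Cd8a and Cd3e were 0.996 (95% interval 0.37 to 1.62, limma adjusted p = 0.151) and 0.73 (95% interval 0.05 to 1.41, limma adjusted p = 0.434). Cd4, the co-receptor of helper T cells, read 7.66, 7.96 and 7.49 in DTR- and 7.39 and 7.31 in DTR+ muscle at day 4 and 6.94, 6.92 and 6.93 and 7.28, 7.60 and 7.82 at day 8, so its DTR+ arrays were the lower at day 4 and the higher at day 8. It had the smallest interaction p of the list (0.99, 95% interval 0.50 to 1.48, limma adjusted p = 0.0633). Gzmb, the protease granzyme B of killer cells, fell by 0.75 in DTR- muscle (limma adjusted p = 0.0141) and had 0.36 in DTR+ muscle (interaction 1.11, limma adjusted p = 0.145). Ccl5 was the single called gene of 16 in the NK, cytotoxic and Th1 list.

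**Figure D4:**
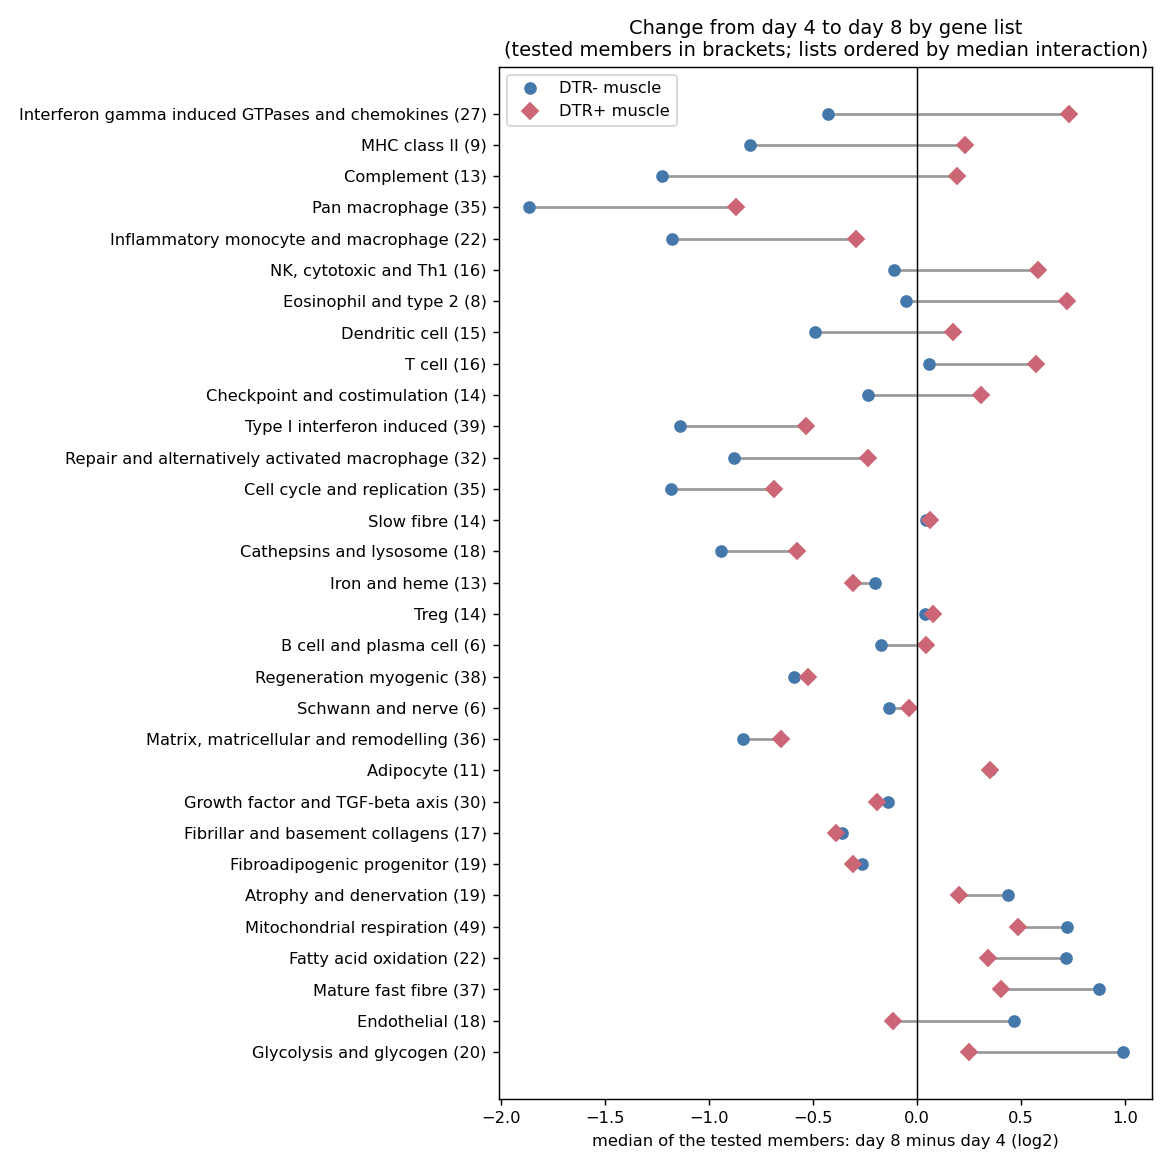
Median change from day 4 to day 8 (log2) of the tested members of each gene list with at least 6 of them in DTR- CTx muscle (blue circles) and DTR+ CTx muscle (red diamonds), with lists ordered by their median interaction. The interferon, MHC class II and macrophage lists lie further right in DTR+ muscle, the mature fast fibre and glycolysis lists lie further left, and the myogenic, collagen and fibroadipogenic progenitor lists lie nearly together.

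The 4 genes called lower in the interaction rose in DTR- muscle, and in DTR+ muscle 1 of them fell and 3 had no called change. Ddit4l, an inhibitor of the growth regulator mTOR, read 8.43, 9.71 and 9.31 in DTR- and 9.55 and 10.49 in DTR+ muscle at day 4, and 11.46, 11.59 and 11.62 and 10.37, 10.67 and 9.80 at day 8. It rose by 2.41 in DTR- muscle (limma adjusted p = 1.50e-05) and had 0.26 in DTR+ muscle (limma adjusted p = 0.687). Mylk4, a myosin light chain kinase of striated muscle, read 9.42, 11.02 and 11.48 and 11.39 and 12.15 at day 4 and 11.62, 12.45 and 11.80 and 9.88, 10.76 and 10.14 at day 8. It was the gene that rose in DTR- muscle (1.32, limma adjusted p = 0.0111) and fell in DTR+ muscle (-1.51, limma adjusted p = 0.0236).

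Plaat1, a phospholipid-modifying enzyme, read 6.64, 7.45 and 7.27 and 7.52 and 7.73 at day 4 and 8.54, 8.75 and 8.56 and 7.51, 7.74 and 7.55 at day 8. Rcan2, a regulator of the phosphatase calcineurin, read 7.17, 7.92 and 7.66 and 7.74 and 8.13 at day 4 and 8.43, 8.51 and 8.30 and 7.44, 7.71 and 7.43 at day 8. DTR- replicate 1 at day 4 was the lowest array for Mylk4, Ddit4l, Plaat1 and Rcan2, and at day 8 the DTR+ arrays lay below the DTR- arrays in each. The interactions were -2.16 ± 0.47 for Ddit4l, -2.83 ± 0.56 for Mylk4, -1.52 ± 0.29 for Plaat1 and -1.24 ± 0.25 for Rcan2 (limma adjusted p = 0.0413, 0.0259, 0.0216 and 0.0261). Without that array they were -1.79, -2.22, -1.28 and -1.03, and Ddit4l and Rcan2 no longer passed. None of the 4 was called without DTR+ replicate 3 at day 4.

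Most mature fibre genes rose in DTR- muscle, and their median change was smaller in DTR+ muscle. Of 37 tested fast fibre genes, 34 were called higher at day 8 in DTR- muscle (median 0.87) and 13 in DTR+ muscle (median 0.40). Among all genes tested, 11.5% were called higher in DTR- and 2.77% in DTR+ muscle. None of the 37 was called in the interaction (0 higher and 15 lower at an unadjusted p under 0.05 in limma, where 4.91% of all genes were lower), and 36 of the 37 values were negative. All 20 tested glycolysis and glycogen genes rose in DTR- muscle and 2 rose in DTR+ muscle (medians 0.99 and 0.25), with 0 called in the interaction and 10 lower at an unadjusted p under 0.05. The median genotype effect of the fast fibre list was 0.34 at day 4 and -0.15 at day 8, and that of the glycolysis list 0.38 and -0.26. The gap thus included higher DTR+ values at day 4, and no member of either list was called between the genotypes at either day. The fast fibre mean read 10.92, 11.70 and 11.75 in DTR- and 11.68 and 12.06 in DTR+ muscle at day 4, and 12.57, 12.61 and 12.53 and 12.38, 12.47 and 12.28 at day 8. The DTR+ arrays were all below the DTR- arrays at day 8, and DTR- replicate 1 at day 4 stood below the rest of its group. Without it the list's median interaction was -0.29 in place of -0.48, and for glycolysis -0.47 (-0.39 without DTR+ replicate 3 at day 4) in place of -0.72.

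Mitochondrial respiration genes were called higher at day 8 for 42 of 49 in DTR- and 16 of 49 in DTR+ muscle (median changes 0.72 and 0.49). Their median interaction was -0.27. Fatty acid oxidation genes were so called for 18 of 22 and 2 of 22 (medians 0.72 and 0.34), with a median interaction of -0.40. Among all genes tested, 11.5% were called higher in DTR- and 2.77% in DTR+ muscle, which had 2 arrays in place of 3 at day 4. No member of either list was called in the interaction. At an unadjusted p under 0.05 in limma 4 and 6 were lower, where 4.91% of all genes were. Phkg1, the catalytic subunit of muscle phosphorylase kinase, read 10.44, 10.74 and 10.64 in DTR- and 9.45, 9.62 and 9.75 in DTR+ muscle at day 8 (interaction -1.91, 95% interval -2.91 to -0.91, limma adjusted p = 0.0772). Rpl3l, a ribosomal protein of striated muscle, had -1.94 (limma adjusted p = 0.198), with a DTR- day 4 group of 6.90, 9.47 and 9.13. The spread within that group is larger than the interaction.

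Markers of the myogenic programme did not pass the interaction. Pax7, which marks satellite cells, fell in both genotypes, by 0.69 and by 0.87 (interaction -0.17, 95% interval -0.72 to 0.38). Myh3, the embryonic myosin heavy chain, fell by 2.14 and by 1.82 (interaction 0.31, 95% interval -1.08 to 1.71). Chrng, which encodes the fetal acetylcholine receptor subunit, fell by 2.75 and by 2.53 (interaction 0.22, 95% interval -0.40 to 0.85), while its adult counterpart Chrne rose by 2.42 and by 1.36 (interaction -1.06, 95% interval -1.91 to -0.22, limma adjusted p = 0.304). The exchange of receptor subunits was therefore called in both genotypes. Of the 38 myogenic genes, 0 were called in the interaction (1 higher and 0 lower at an unadjusted p under 0.05 in limma), with median courses of -0.59 and -0.53. Over all genes 0.577% were called, and 5.4% were higher and 4.91% lower at that unadjusted p.

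Myog, the factor that drives myoblasts to differentiate, was the member furthest from 0. It read 10.72, 10.61 and 10.18 in DTR- and 10.42 and 10.50 in DTR+ muscle at day 4, and 9.49, 9.11 and 9.14 and 10.35, 10.03 and 10.53 at day 8. It fell by 1.25 in DTR- muscle (limma adjusted p = 7.95e-05), with a change of -0.15 in DTR+ muscle (limma adjusted p = 0.698), and was higher in DTR+ muscle at day 8 by 1.06 (limma adjusted p = 0.00258). The DTR+ arrays at day 8 overlapped those at day 4. The interaction of 1.10 ± 0.29 did not pass (95% interval 0.49 to 1.71, limma adjusted p = 0.0922). Tnnc1, the troponin C of slow fibres, had a like course, falling by 1.87 in DTR- muscle with -0.53 in DTR+ muscle (interaction 1.34, 95% interval 0.55 to 2.13, limma adjusted p = 0.118).

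**Figure D5:**
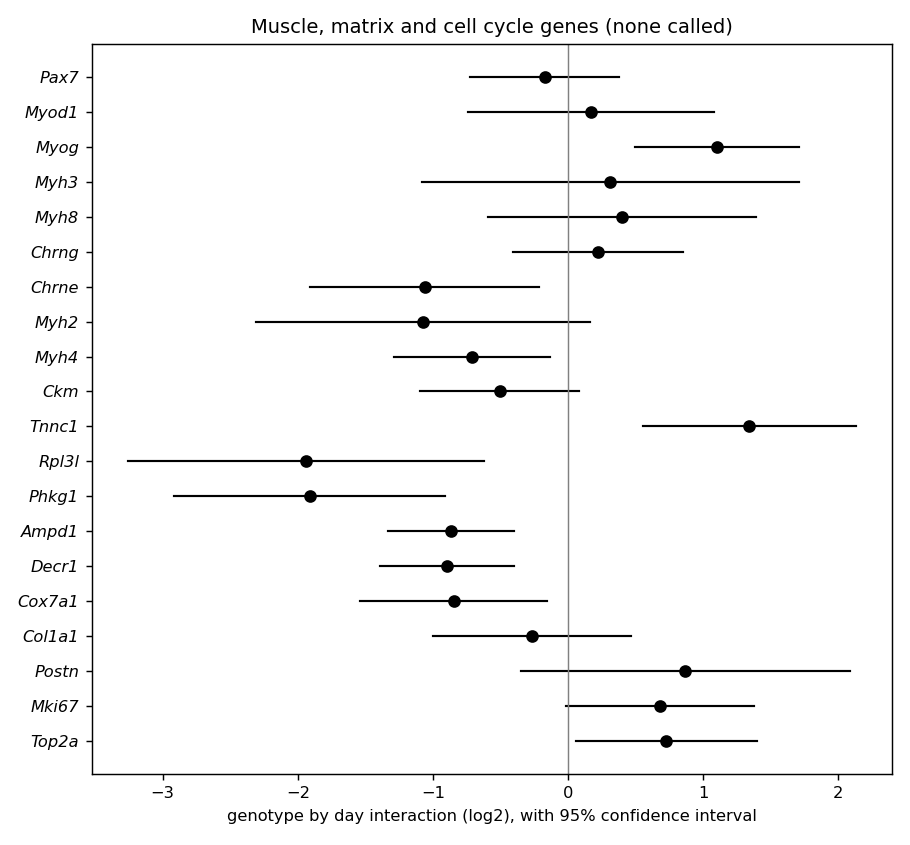
Genotype by day interaction (log2) of 20 muscle, matrix and cell cycle genes as points, with 95% confidence intervals from the limma fit as bars and 0 marked. The intervals of Myog, Tnnc1, Chrne, Rpl3l, Phkg1, Ampd1 and Decr1 lie away from 0, but no gene shown has an adjusted p under 0.05.

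Cell cycle, matrix and endothelial genes gave no call in the interaction either, and 0.577% of all genes were called. At that share, lists of this size would mostly hold no call. At an unadjusted p under 0.05 in limma, 5.4% of all genes were higher and 4.91% lower. In the courses, 17.8% of all genes were called lower in DTR- and 8.1% in DTR+ muscle. Of 35 cell cycle genes, 30 fell in DTR- and 15 in DTR+ muscle, with a median interaction of 0.30 and 4 higher and 0 lower at an unadjusted p under 0.05. Mki67, a marker of dividing cells, read 7.11, 7.23 and 7.51 in DTR- and 7.42, 7.71 and 8.23 in DTR+ muscle at day 8 (interaction 0.68, 95% interval -0.01 to 1.37). Of 36 matrix genes, 20 fell in DTR- and 14 in DTR+ muscle, with a median interaction of -0.01 and 4 higher and 1 lower at an unadjusted p under 0.05. Col1a1, the main chain of collagen I, had an interaction of -0.27 (95% interval -0.9996 to 0.46). Of 18 endothelial genes, 3 were called lower in DTR+ muscle at day 8 and 0 in the interaction (0 higher and 5 lower at an unadjusted p under 0.05, median -0.60). At day 8, 0.644% of all genes were called lower in DTR+ muscle. Cdh5, the cadherin of endothelial junctions, read 10.70, 10.74 and 10.44 in DTR- and 9.84, 9.83 and 9.56 in DTR+ muscle at day 8, and Aplnr, the apelin receptor, read 9.25, 8.93 and 9.45 and 7.97, 7.63 and 7.48, after values at day 4 that overlapped. Their interactions were -1.01 and -1.35 (limma adjusted p = 0.261 and 0.13).

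The calls rested on few arrays, and 12 genes were called in all 11 fits that left out 1 array. They were Rnase2a, Retnla, Arg1, Pdcd1lg2, Gbp2b, Col6a5, Ccl9, Rnase6, Itgax, Mgl2, Ccl24 and AA467197. All 78 kept their sign in each of those fits. Of the 78, 30 belonged to at least 1 of the 33 gene lists and 48 to none.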

How the data were processed

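Intensities per probe set came from Affymetrix Mouse Gene 1.0 ST arrays and the authors made them by RMA with Affymetrix Power Tools, as the submitters' processing notes record. Neither a version nor the probe set definition is given in the sources used here. The deposited intensity values are linear, and log2 was taken here. RMA includes quantile normalization, which can hide a shift common to most genes. Groups were taken from the sample titles. Other labels describe CTx and xINJ muscle alike as cardiotoxin-injured, and the 10 arrays outside the CTx groups entered no contrast. Those in groups of more than 1 array added to the estimate of the spread. All 10 entered the gene filter and the choice of probe set.

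Of 24922 probe sets, 21425 had 1 listed symbol and stood for 19752 genes, and the probe set with the highest mean was kept for each of the 921 genes with several. Genes above the 40th percentile on at least 2 arrays were tested (13515). All 21 arrays entered 1 fit in limma 3.58.1 (R 4.3.3) with 9 group means, 12 residual and 6.57 prior degrees of freedom, and 5 contrasts. Two-sided tests were adjusted by Benjamini-Hochberg within each contrast. Between any 2 of the CTx groups, of 2 or 3 arrays each, a 2-sided exact permutation test cannot reach 0.05, and precision is limited by the number of arrays. The fit was checked on simulated data.

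The members and the 33 gene lists (818 entries, 634 distinct genes tested) were chosen with earlier results of these data known. Genes named are up to 20 called in each direction with the largest interaction (with under 5 called, the 10 of smallest p), up to 8 per pattern, up to 5 per list by p, and a fixed set. In that set Il2ra and Ctla4 lay below the filter level, and Spp1 and Areg had no probe set with a single symbol. Gm4841 lies outside the rule. Alternatives were the filter, the probe set rule, centring, quantile normalization, an intensity trend, only CTx arrays, a replicate block, the xINJ array of doubtful day placed at day 8, each CTx array left out, and, added after the data were seen, a threshold of 0.10.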

Additional observations from a re-analysis of the deposited data

Results flagged for a closer look

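Each gene below is here because its genotype effect differed between day 4 and day 8 by the interaction test in limma (adjusted p under 0.05), and each value is that interaction (log2). Of the genes that rose in DTR+ muscle from below the filter level, Rnase2a had 4.86, Arg1 2.58, Chil3 2.29, Gbp2b 2.10, Pdcd1lg2 1.996 and Ccl24 1.26. Other genes that rose in DTR+ muscle and were not called in DTR- muscle were Retnla (3.66), Gm12185 (2.91), Iigp1 (2.56), Col6a5 (1.93), Gbp8 (1.86), Irgm1 (1.82), Psmb10 (1.71), Ccl5 (1.67) and Gbp11 (1.45). The genes with opposite courses were Ccl8 (3.07), Mgl2 (1.72), Tap1 (1.69), Psmb8 (1.58), AA467197 (1.40), F10 (1.39), Ms4a8a (1.16), H2-Eb2 (1.13) and, lower, Mylk4 (-2.83). The other 3 lower genes were Ddit4l (-2.16), Plaat1 (-1.52) and Rcan2 (-1.24).

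Of the genes that fell in DTR- muscle and were not called in DTR+ muscle, Cd52 had 2.37, Plac8 2.30, Ccl9 2.02, Ccl6 1.87, Phf11a 1.81, Rnase6 1.80, Itgax 1.75 and Cfp 1.75. Fcgr2b had 1.503, C1qa 1.48, C1qb 1.13, Mrc1 1.32, H2-Ab1 1.16 and Ciita 0.996. The genes that fell by less in DTR+ muscle were Cybb (1.30), Csf1r (1.26), Nckap1l (1.16), Ctsh (1.03) and Abcg1 (1.02).

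The 32 called genes not described in the report lie outside the naming rule and are named after their values were seen. They are arranged by what they are known for, with no test of these groupings. The first 9 fell in DTR- muscle and were not called in DTR+ muscle. Itgb2, the beta chain of the leukocyte integrins, had an interaction of 1.52, with courses of -1.73 in DTR- and -0.21 in DTR+ muscle. Selplg, the ligand that leukocytes use to roll on P-selectin, had 1.39 (courses -1.37 and 0.02). Lcp1, an actin-bundling protein of leukocytes, had 1.35, Coro2a 1.17, Gmfg 1.30, Bin2 1.39, Cytip 1.33, Efhd2 1.09 and Tiam2 0.84.

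The SLAM family receptors Cd84, Ly9 and Slamf8 had the same pattern, with Cd84 at 1.53, Ly9 at 1.31 and Slamf8 at 1.42. It was also that of Sla, an adaptor that dampens antigen receptor signals, at 1.65 (limma adjusted p = 0.00509), Prkcd, a protein kinase C, at 1.24 (limma adjusted p = 0.00937), Ptpn22 at 1.59, Rasgrp1 at 1.34 and Sash3 at 1.03. Unc93b1, which escorts endosomal Toll-like receptors, had 1.16, Epsti1 1.43, and the transcription regulators Id2 and Tfec had 1.47 and 1.56.

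MHC class I and class I-like genes were H2-M3 (1.14), H2-Q4 (1.48) and H2-Q5 (1.46). H2-M3 fell in DTR- muscle and was not called in DTR+ muscle. H2-Q4 and H2-Q5, which are close in sequence to each other, rose in DTR+ muscle and were not called in DTR- muscle. Apol7c (1.66), Otud1 (1.24) and Tarm1 (1.33), a receptor of myeloid cells, also rose in DTR+ muscle and were not called in DTR- muscle. Apol7c lay below the filter level in every CTx group but DTR+ muscle at day 8, and its size rests on those values. Enzymes among the genes that fell in DTR- muscle and were not called in DTR+ muscle were Cyp1b1 (1.40), Cyp4f18 (1.34), Naaa (1.10), Pfkp (0.92) and Rnf19b (1.14).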

How the results depend on the processing

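All 78 called genes kept their sign in each alternative in which they were tested, and 11 of them were called in all 20 (Ccl24 was lost in 1). The count depended on the setting. It was 26 (26 higher, 0 lower, with 1256 genes at an unadjusted p under 0.05 in limma) with only the CTx arrays, which leaves 7 residual degrees of freedom, 50 (47 higher) with arrays centred on the median, and 200 (165 higher, 35 lower) at an adjusted p under 0.10. The lower genes numbered 14 with quantile normalization and 9 with the xINJ array of doubtful day at day 8. The cause was not tested.

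Leaving out 1 array moved the count between 12 and 224 (12 to 166 higher, 0 to 58 lower). It was 224 without DTR+ day 4 replicate 2, 12 without replicate 3, 138, 45 and 35 without DTR+ day 8 replicates 1, 2 and 3, 28, 104 (32 lower) and 153 without DTR- day 4 replicates 1, 2 and 3, and 26, 31 and 47 without DTR- day 8 replicates 1, 2 and 3. The genotype effect gave 1 to 5 calls at day 4 and 266 to 553 at day 8, with 266 without DTR+ day 8 replicate 3, and the courses gave 3078 to 4141 in DTR- and 625 to 1640 in DTR+ muscle, with 625 without DTR+ day 4 replicate 2. Of uncalled genes, Pax7 ranged from -0.43 to 0.037 (positive without DTR- day 4 replicate 1), Myod1 from -0.089 (without DTR+ day 8 replicate 3) to 0.44, with -0.06 without DTR- day 4 replicate 2, and Col1a1 from -0.59 to 0.049 (positive without DTR+ day 4 replicate 3). Of the 32 list medians, 8 changed their sign in at least 1 alternative, among them collagens (-0.13, against 0.049 without DTR+ day 4 replicate 3) and regeneration genes (0.10, against -0.033 without DTR+ day 8 replicate 3).

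With the replicate number as a block 153 genes were called in the interaction (138 higher, 15 lower), including all 78. Deviations of 15 same-numbered pairs of arrays correlated between -0.44 and 0.54, and 9 exceeded 0.1. All 3 pairs did between the genotypes at day 8 and between the days in DTR- muscle, where the block moved no count by over 1.5 times. Of the 6 that did not, 5 involved the 2 DTR+ arrays of day 4. The deviations of 2 arrays from their mean mirror each other, so these pairs cannot decide whether the numbers pair the arrays. The labels do not state it, and the fit as planned used no block. In 8 of 15 comparisons of an array with another group it correlated best with its own number.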

Other observations

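The 9 gene groups that follow, which the report does not take up, had median interactions between -0.16 and 0.24, beside a median of -0.02 over all genes tested. Treg genes had a median of 0.13 over 14 tested members, of which 3 were called higher in DTR+ muscle at day 8 and 0 in the interaction (2 higher and 0 lower at an unadjusted p under 0.05 in limma). B cell and plasma cell genes had 0.13 over 6, nerve and Schwann cell genes 0.10 over 6, adipocyte genes -0.02 over 11 and fibroadipogenic progenitor genes -0.14 over 19. Growth factor genes had -0.03 over 30, and iron and heme genes 0.22 over 13. Atrophy and denervation genes had -0.16 over 19, with 1 higher and 3 lower at an unadjusted p under 0.05. Slow fibre genes had 0.24 over 14 and went both ways, with 3 higher and 2 lower at an unadjusted p under 0.05, from -1.26 for Myl3 to 1.34 for Tnnc1. No member of these lists was called in the interaction by limma, where 0.577% of all genes were. At an unadjusted p under 0.05, 5.4% of all genes were higher and 4.91% lower, and 2.99% were called higher at day 8.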
